A study of Capra hircus with 6 samples.

Results

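The transcripts of 9 genes that regulate plasminogen activation and blood clotting were examined in goat adipose-derived mesenchymal stem cells, stromal cells that fat cells can arise from. The genes were chosen by name, as the rows for PLAT, PLAU, PLAUR, SERPINE2, SERPINF1, F3, TFPI, TFPI2 and THBD, and all 9 were found among the 16262 rows that carried a gene symbol. These genes and the further pathway lists were chosen with earlier results of these data known. Their counts set beside those of all genes are therefore only descriptive. Control libraries (n = 3) are of WT (wild-type) genotype, and TAZ libraries (n = 3) come from cells overexpressing TAZ, the transcriptional coactivator encoded by WWTR1. All 6 libraries are labelled as adipogenic differentiation, so both groups share that treatment. The design text asks what TAZ does to fat cell formation. The labels do not give the promoter of the construct, say whether the overexpressing line is 1 clone or whether control cells carried an empty vector, or tie the replicates to different cultures or animals. The p-values therefore reflect only how far these libraries differ among themselves, and that spread may be technical.

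Plasmin is the protease that dissolves fibrin and also acts on the matrix around cells. It is cut from plasminogen by tissue-type plasminogen activator or by urokinase, which is held at the cell surface by its receptor, and serpins (inhibitors that trap a protease after it cuts them) end that activity. Clotting starts when tissue factor on a cell meets factor VII from plasma, and it is held back by Kunitz-type inhibitors and by thrombomodulin, which turns thrombin towards the activation of the anticoagulant protein C. Stromal cells of fat tissue are known to make several of these proteins, while plasminogen and most clotting factors come mainly from the liver.

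Expression is given in FPKM, the number of sequenced fragments divided by gene length and by library size. Levels can thus be set side by side between genes only as far as the gene lengths used are right, which was not checked. The libraries held 33871397 to 37705644 fragments, recovered from the steps between low FPKM values as the totals at which fragment numbers are whole. At least 1 FPKM in 3 of the 6 libraries was required for the test, which 10750 genes and 8 of the 9 members met. Log2 fold changes are TAZ minus control of log2(FPKM + 1) values, a scale that shrinks differences between low values, and come from limma with Benjamini-Hochberg adjustment over the 10750 genes at a threshold of 0.05. WWTR1 rose from 31.96 ± 3.38 to 95.7 ± 19.5 FPKM (SD, n = 3 in each group), and its row does not tell construct transcripts from endogenous ones. The 9 stromal markers (PDGFRA, PDGFRB, THY1, NT5E, ENG, COL1A1, COL3A1, DCN and LUM) were expressed in every library, and the 6 adipocyte markers (ADIPOQ, PLIN1, LPL, PPARG, LEP and CD36) were each under 1 FPKM in every library. Of the 9 stromal markers, 4 rose with TAZ (PDGFRB, COL3A1, DCN and LUM) and 2 fell (THY1 and ENG). Over all tested genes 15.7% were higher and 22.1% lower.

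Of the 8 members tested, 6 rose in the TAZ libraries (PLAU, PLAUR, SERPINE2, F3, TFPI2 and THBD), 1 fell (SERPINF1) and 1 did not pass the test (PLAT). Over all tested genes 37.9% passed the threshold, 15.7% higher and 22.1% lower in the TAZ libraries. The median log2 fold change was 0.55 over the tested members and -0.050 over all tested genes. Only SERPINE2 and SERPINF1 changed at least 2-fold on the fitted scale, a size reached by 4.52% of all tested genes. THBD, at 0.98, and PLAU, at 0.95, lay just under this size, a log2 fold change of 1. The values of the control and TAZ libraries did not overlap for 7 of the 8 tested members, PLAT being the exception, against 48.4% of all tested genes (19.7% higher and 28.7% lower with TAZ). In bulk RNA, fewer cells that express a gene and less RNA of it per cell cannot be told apart.

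**Figure D1:**
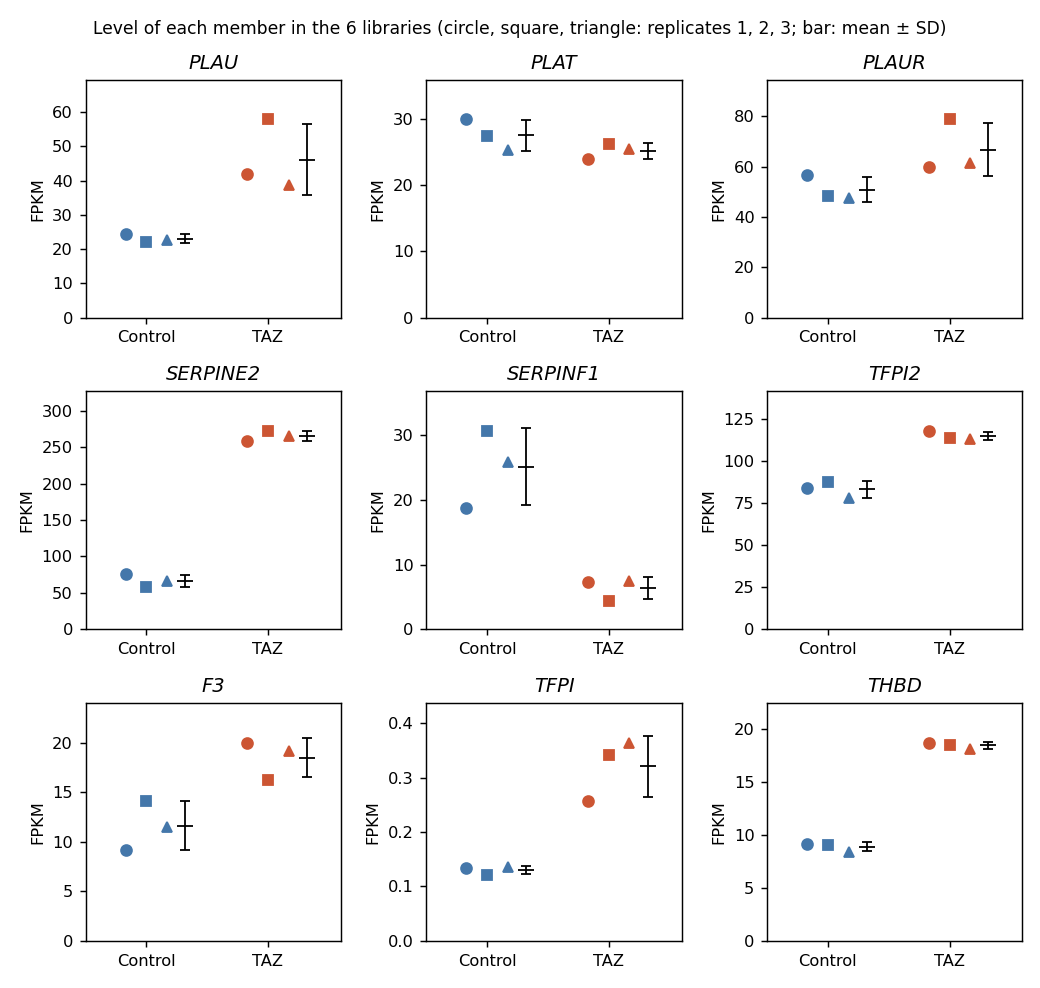
FPKM (vertical axes, each from 0) of the 9 genes in the 3 control and 3 TAZ libraries, with circles, squares and triangles for replicates 1, 2 and 3 and black bars for the mean ± SD. Only PLAT has overlapping groups, SERPINF1 is the only gene lower in all TAZ libraries, and TFPI stays under 0.4 FPKM throughout.

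Of the plasminogen activators, the urokinase gene rose and the other did not pass the test. PLAU, which encodes urokinase, read 24.4, 22.0 and 22.8 FPKM in the controls and 41.8, 57.8 and 38.7 FPKM in the TAZ libraries, always in the order of replicates 1, 2 and 3. The groups did not overlap, and TAZ replicate 2 was the highest library. The mean was 2.0 times as high with TAZ (23.1 ± 1.22 against 46.1 ± 10.3 FPKM), with a log2 fold change of 0.95 (SE 0.13, limma adjusted p = 6.54e-05).

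PLAT, which encodes tissue-type plasminogen activator, stood at 29.9, 27.3 and 25.3 FPKM in the controls and at 23.8, 26.2 and 25.4 FPKM in the TAZ libraries. These values overlapped, and the log2 fold change of -0.12 did not pass the test (SE 0.090, adjusted p = 0.314). Its 95% interval ran from -0.32 to 0.073, which leaves room for a fall to 0.803 times the control level or a rise to 1.05 times. Urokinase transcripts made up 44.97%, 44.6% and 47.4% of the summed FPKM of the activator pair in controls and 63.7%, 68.9% and 60.3% with TAZ. The ratio of PLAU to PLAT moved from 0.842 ± 0.0520 to 1.83 ± 0.351 without overlap. In an exact permutation test of the log2 ratio p was 0.1, the smallest that 3 libraries against 3 allow (two-sided, adjusted p = 0.175 over the 7 ratios computed).

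PLAUR, the gene of the urokinase receptor, stood at 56.5, 48.4 and 47.8 FPKM in the controls and at 60.0, 78.8 and 61.5 FPKM in the TAZ libraries. The groups were separate, although the highest control lay close to the lowest TAZ library. The log2 fold change was 0.38 (SE 0.11, limma adjusted p = 0.0169), from a mean of 50.9 ± 4.90 to 66.8 ± 10.5 FPKM. This call was lost without control replicate 2 (adjusted p = 0.0514), without TAZ replicate 2 (adjusted p = 0.0792) and with no filter on low genes (adjusted p = 0.0850). The level of PLAU relative to its receptor was higher with TAZ, at 0.455 ± 0.0227 of the PLAUR level in controls and 0.687 ± 0.0532 with TAZ, with no overlap (exact permutation p = 0.1, adjusted p = 0.175).

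TAZ replicate 2 held the highest PLAU, PLAUR, PLAT and SERPINE2 and the lowest SERPINF1 and F3 of the TAZ libraries, and it also held the highest WWTR1, at 118 FPKM where the other TAZ libraries had 84.6 and 84.2 FPKM. Control replicate 1 held the same extremes of these 6 members among the controls, but its WWTR1, at 30.2 FPKM, lay between the other controls (29.9 and 35.9 FPKM). Over all tested genes the deviations of these 2 libraries from their group means correlated at 0.53. Such a likeness was not particular to them. Control replicate 3 with TAZ replicate 1 gave 0.69 and control replicate 2 with TAZ replicate 3 gave 0.55, while all other pairs across the groups were negative. Deviations from a group mean cancel out within the group, so correlations of both signs must occur. The part of the WWTR1 level in the differences among the TAZ libraries was not tested. Without TAZ replicate 2 the log2 fold change of PLAU was 0.78 (limma adjusted p = 9.50e-05) and that of SERPINF1 -1.61 (adjusted p = 1.13e-05).

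The largest rise among the members was that of SERPINE2, which encodes protease nexin-1, a heparin-binding serpin that inhibits thrombin, urokinase and tissue-type plasminogen activator. Its values were 75.5, 58.7 and 66.1 FPKM in the controls against 259, 272 and 265 FPKM in the TAZ libraries. The TAZ libraries lay within a narrow band, far above the highest control. The mean rose 3.97 times, from 66.8 ± 8.42 to 265 ± 6.78 FPKM, a limma log2 fold change of 1.98 (SE 0.095, adjusted p = 2.69e-09). Ordered by fitted change, SERPINE2 was number 132 from the top of the 10750 tested genes. The level of PLAU relative to SERPINE2 went from 0.348 ± 0.0261 in controls to 0.173 ± 0.0347 with TAZ, with no overlap (exact permutation p = 0.1, adjusted p = 0.175).

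SERPINF1 was the single member that fell. It encodes pigment epithelium-derived factor, a secreted serpin that does not inhibit proteases and is known to restrain blood vessel growth, and that fat cells and their precursors secrete. It stood at 18.8, 30.7 and 25.8 FPKM in the controls and at 7.28, 4.37 and 7.48 FPKM in the TAZ libraries. Every TAZ library lay far below the lowest control, and the spread within groups was wide for this gene, with a coefficient of variation of 23.7% in the controls and 27.3% with TAZ. The mean fell to 0.254 times the control level (log2 fold change -1.83, SE 0.18, limma adjusted p = 4.94e-06), from 25.1 ± 5.96 to 6.38 ± 1.74 FPKM. Ordered by fitted change, SERPINF1 was number 16 from the bottom of the 10750 tested genes.

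The summed level of both serpin members was 91.9 ± 2.48 FPKM in the controls and 272 ± 5.35 FPKM in the TAZ libraries. SERPINE2 made up 80.0%, 65.7% and 71.9% of that sum in controls and 97.3%, 98.4% and 97.3% with TAZ. The ratio of SERPINE2 to SERPINF1 was 2.83 ± 1.07 in controls and 44.4 ± 15.5 with TAZ, with no overlap and a wide spread in both groups (exact permutation p = 0.1, adjusted p = 0.175).

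**Figure D2:**
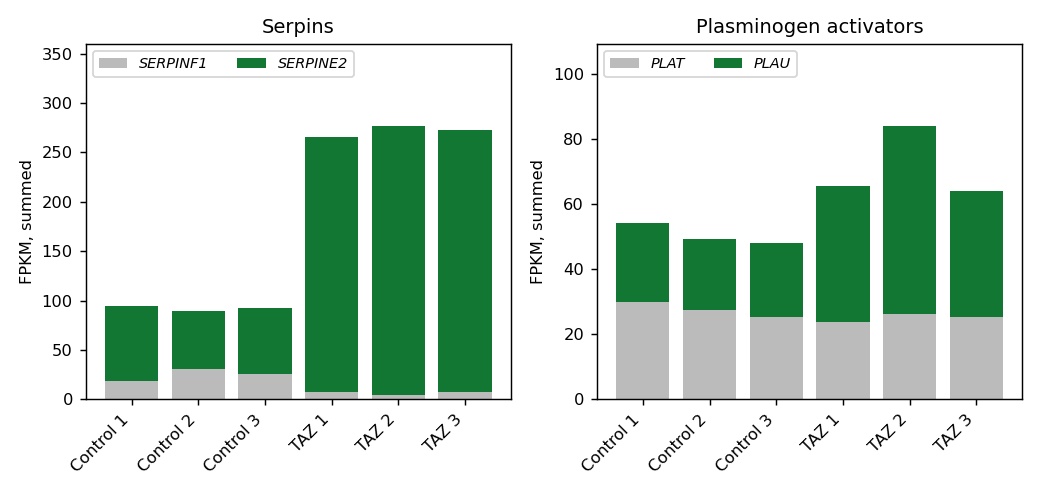
Summed FPKM (vertical axis) in each library of SERPINF1 and SERPINE2 (left) and of PLAT and PLAU (right), stacked by gene. SERPINE2 takes 65.7% to 80.0% of its bar in the controls and 97.3% to 98.4% with TAZ, while the PLAT part is of like height in all 6 libraries.

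TFPI2, a Kunitz-type inhibitor that acts mainly on plasmin and related proteases and only weakly on tissue factor, was the most abundant member in the controls. Its values were 83.9, 87.6 and 77.8 FPKM in the controls and 118, 114 and 113 FPKM in the TAZ libraries. The groups were well apart although the change was modest. The log2 fold change was 0.47 (SE 0.080, limma adjusted p = 0.000536), a mean of 83.1 ± 4.94 against 115 ± 2.45 FPKM.

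F3 encodes tissue factor, the membrane protein that starts clotting. It stood at 9.18, 14.1 and 11.5 FPKM in the controls and at 20.01, 16.3 and 19.1 FPKM in the TAZ libraries. The control values were scattered, and control replicate 2 lay just under TAZ replicate 2. The log2 fold change was 0.64 (SE 0.13, limma adjusted p = 0.00215), from 11.6 ± 2.48 to 18.5 ± 1.95 FPKM, and it ran from 0.49 without control replicate 1 to 0.78 without control replicate 2.

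TFPI, the inhibitor of tissue factor with factor VII and of factor X, was the only member below the filter. It stood at 0.134, 0.121 and 0.135 FPKM in the controls, from 8, 7 and 8 fragments, and at 0.257, 0.341 and 0.364 FPKM in the TAZ libraries, from 15, 22 and 23 fragments. The groups were apart at these very low levels, and the mean was 2.47 times as high with TAZ. With no filter, where 23.8% of 16262 genes passed, 10.3% higher and 13.5% lower, TFPI rose by 0.22 on the log2(FPKM + 1) scale (SE 0.032, limma adjusted p = 0.00637). Limma's voom, run with no filter on the recovered fragment numbers, gave a log2 fold change of 1.24 (95% interval 0.55 to 1.93, adjusted p = 0.0177). In that fit 26.6% of all genes passed, 11.6% higher and 15.0% lower. Both inhibitor genes of the Kunitz family were thus higher, at levels far apart.

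THBD encodes thrombomodulin, the membrane receptor that binds thrombin. It stood at 9.15, 9.06 and 8.39 FPKM in the controls and at 18.7, 18.5 and 18.1 FPKM in the TAZ libraries. The replicates of each group were close together, and the groups were well apart. The mean was 2.08 times as high (8.87 ± 0.416 against 18.4 ± 0.298 FPKM), and the limma log2 fold change was 0.98 (SE 0.087, adjusted p = 1.51e-06).

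The ratios of F3 to TFPI2 and of THBD to F3 overlapped between groups. F3 stood at 0.140 ± 0.0271 of the TFPI2 level in the controls and 0.161 ± 0.0153 with TAZ (exact permutation p = 0.3, adjusted p = 0.3). THBD stood at 0.788 ± 0.186 of the F3 level in the controls and 1.005 ± 0.112 with TAZ (exact permutation p = 0.3, adjusted p = 0.3). With 3 libraries a group these tests cannot show that the ratios were equal.

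**Figure D3:**
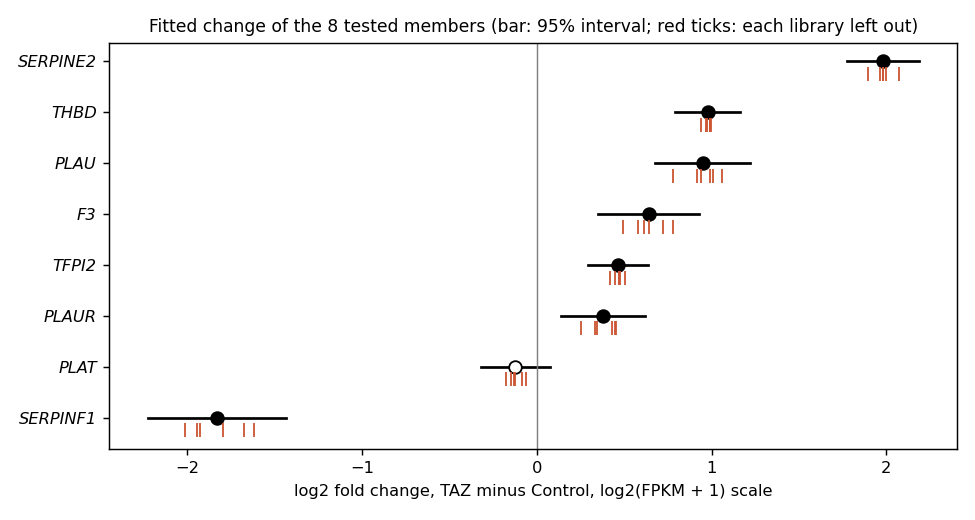
Fitted log2 fold change (horizontal axis, TAZ minus control on the log2(FPKM + 1) scale) of the 8 tested members, with 95% limma intervals as black bars, filled points for an adjusted p under 0.05 and red ticks for the fits that each leave out 1 library. SERPINE2 at 1.98 and SERPINF1 at -1.83 lie farthest from 0, and the interval of PLAT includes 0.

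The order of the mean levels differed between the groups. In the controls the order from high to low was TFPI2, SERPINE2, PLAUR, PLAT, SERPINF1, PLAU, F3, THBD and TFPI, and the libraries of PLAT and SERPINF1 overlapped, as did those of SERPINF1 and PLAU. With TAZ the order was SERPINE2, TFPI2, PLAUR, PLAU, PLAT, F3, THBD, SERPINF1 and TFPI, and F3 and THBD were the only neighbours that overlapped. SERPINE2 thus went from below TFPI2 to above it, PLAU from below PLAT to above it, and SERPINF1 from the level of PLAT and PLAU to below THBD. By mean level over all libraries SERPINE2 exceeded 96.2% of the tested genes and THBD 59.1%, the highest and lowest such shares among the tested members.

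For each tested member, the gene with the most similar profile was taken as the one at the smallest Euclidean distance over the 6 libraries, in log2(FPKM + 1) centred on each gene's control mean. This gave PML for SERPINE2 (distance 0.118), SCRG1 for SERPINF1 (0.288), BDKRB2 for PLAU (0.238) and GTF3C1 for PLAUR (0.1001). It gave CC2D1A for PLAT (0.0362), RDH11 for F3 (0.175), USF1 for TFPI2 (0.10004) and TRIM38 for THBD (0.115). The distances describe these 6 libraries and, except for PLAT, whose groups overlapped, rest mostly on the difference between the groups.

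Around the members, 49 further genes of the pathway were considered in 6 lists, and 34 of them had a row. Of these, 15 passed the filter, of which 4 rose, 5 fell and 6 did not pass, with a median log2 fold change of 0.031 against -0.050 over all tested genes. The number that fell was 2 without TAZ replicate 2. These shares, 4 and 5 of 15, stand beside 15.7% higher and 22.1% lower over all tested genes.

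Among plasminogen receptors, cofactors and clearance receptors, 2 of 7 tested genes rose, 3 fell and 2 did not pass. ANXA2 and S100A10, which together form a cell-surface receptor for plasminogen and tissue-type plasminogen activator, both fell. ANXA2 went from 2068 ± 132 to 1591 ± 97.6 FPKM, a limma log2 fold change of -0.38 (SE 0.089, adjusted p = 0.00467), and S100A10 from 937 ± 44.7 to 674 ± 30.6 FPKM (-0.47, SE 0.082, adjusted p = 0.000549). VLDLR, an endocytic receptor that clears complexes of proteases with serpins, rose from 3.91 ± 0.557 to 10.02 ± 0.399 FPKM (1.17, SE 0.10, adjusted p = 1.63e-06). LRP1, the larger receptor of the same family, had 141 ± 16.1 FPKM in the controls and 154 ± 18.7 FPKM with TAZ and missed the threshold (adjusted p = 0.388). So did the plasminogen receptor gene PLGRKT, with 17.6 ± 1.24 and 18.0 ± 1.18 FPKM (adjusted p = 0.822).

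ENO1, a glycolytic enzyme that also binds plasminogen at the cell surface, rose (log2 fold change 0.32, adjusted p = 0.0164), a call lost without control replicate 3 (adjusted p = 0.0560), without TAZ replicate 2 (0.0852) and in the unfiltered test (0.0876). MRC2, a collagen receptor associated with the urokinase receptor, fell (-0.32, adjusted p = 0.0138), a call lost without TAZ replicate 2 (adjusted p = 0.0598). ANXA2, S100A10 and ENO1 belong to gene groups with close copies in mammalian genomes, and the treatment of shared reads is not known from the labels, so these values are uncertain.

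Anticoagulant genes other than the members went both ways, with 2 of 4 tested that rose and 1 that fell. PROCR, the receptor that presents protein C to the complex of thrombin and thrombomodulin, rose from 16.0 ± 0.896 to 29.1 ± 1.37 FPKM, a limma log2 fold change of 0.82 (SE 0.087, adjusted p = 8.27e-06). THBD stood at 0.555 ± 0.0480 of the PROCR level in the controls and at 0.635 ± 0.0402 with TAZ, with overlap (exact permutation p = 0.2, adjusted p = 0.28). SERPING1, which encodes the C1 inhibitor, rose from 1.80 ± 0.124 to 3.796 ± 0.394 FPKM (adjusted p = 4.82e-05). PROS1, the protein S gene, fell (-0.37, adjusted p = 0.0313), a call lost without control replicate 1 or 3, without any 1 of the 3 TAZ libraries and in the unfiltered test, at adjusted p-values from 0.0546 to 0.115.

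Clotting factors that had a row were nearly absent. Their list named 16 genes, and the levels of those without a row are not known. None of the 8 genes of that list with a row (F2, F5, F8, F11, F12, FGB, VWF and KLKB1) passed the filter, and their highest value was 0.228 FPKM, for F8. Prothrombin, F2, had 1 fragment in control replicate 1 and 0 in the other libraries, and an observed count of 0 is compatible with up to 3 fragments. Of the thrombin-sensing protease-activated receptors, F2RL2 had 4.33 ± 0.308 FPKM in the controls and 4.35 ± 0.434 FPKM with TAZ and missed the threshold (log2 fold change 0.0019, limma adjusted p = 0.990). F2R, the main thrombin receptor of many cell types, was at 0.0235 to 0.124 FPKM in the controls and 0.0220 to 0.0397 FPKM with TAZ, from 31 and 12 fragments in all (log2 fold change -0.069, adjusted p = 0.221 with no filter, but -0.11 and adjusted p = 0.0151 without control replicate 3). In the vitamin K cycle, on which some clotting factors depend, VKORC1 fell from 93.8 ± 8.21 to 74.4 ± 4.73 FPKM (adjusted p = 0.0113), a call lost without control replicate 2 (0.0564) or TAZ replicate 2 (0.0511). GGCX, at 24.8 ± 2.46 against 24.8 ± 1.64 FPKM, and VKORC1L1 did not pass (adjusted p = 0.997 and 0.366). PLG, SERPINB2, F7 and F10 were not analysed here.

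**Figure D4:**
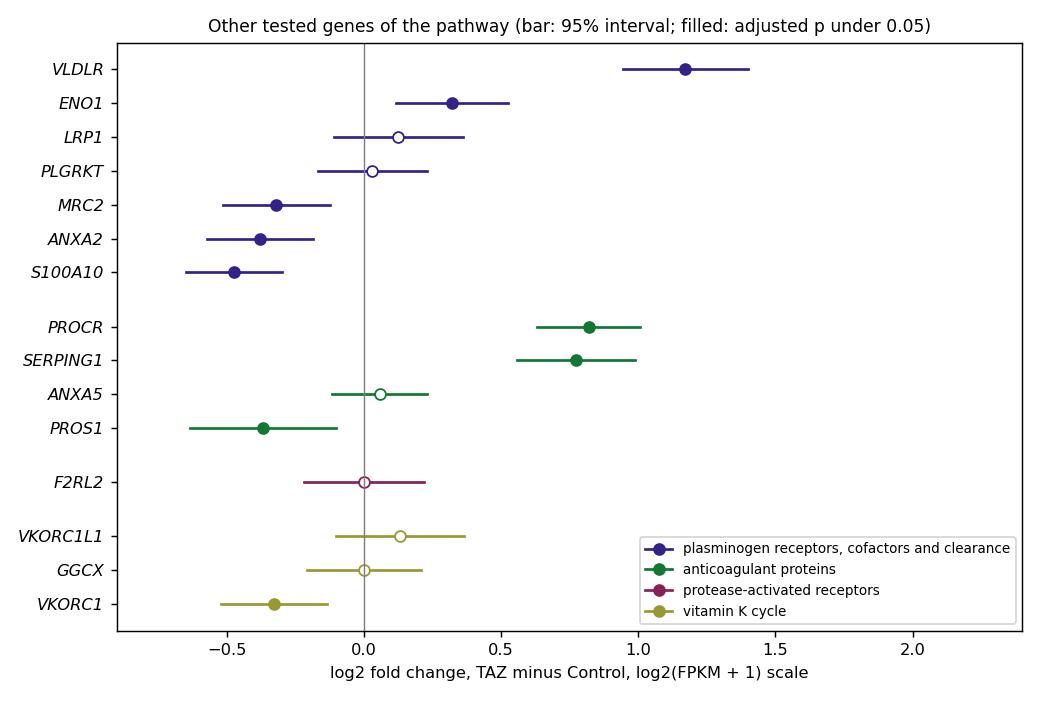
Fitted log2 fold change (horizontal axis, TAZ minus control on the log2(FPKM + 1) scale) of the 15 tested genes of the pathway outside the members, grouped and coloured by list, with 95% limma intervals and filled points for an adjusted p under 0.05. VLDLR, PROCR and SERPING1 lie farthest to the right, and the 5 genes that fell lie between -0.47 and -0.32.

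THBD, TFPI, PLAT and PROCR are also known from endothelial cells and THBD from mesothelial cells, so markers of these cells were read beside them. Of the 8 endothelial markers with a row, 7 were under 1 FPKM in every library, KDR was at 0 in all 6, and CDH5 and TIE1 had 2 and 1 fragments in the controls and none with TAZ. The summed level of the list was 10.2 to 11.2 FPKM in the controls and 5.83 to 6.34 FPKM with TAZ, nearly all from ERG, which fell from 10.1 ± 0.525 to 5.77 ± 0.311 FPKM (limma adjusted p = 5.40e-05). The low members of the list did not move alike. PECAM1 fell from 0.271 to 0.419 FPKM in the controls to 0.0610 to 0.125 FPKM with TAZ (limma adjusted p = 0.00794 with no filter). VWF had 29 fragments in the controls and 73 with TAZ without overlap (adjusted p = 0.0768 with no filter), and TEK had 29 and 30. The 3 mesothelial markers with a row summed to 1.36 to 1.80 FPKM in the controls and 0.439 to 0.592 FPKM with TAZ, nearly all from MSLN.

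Leukocyte and platelet markers were low as well. Of the 5 leukocyte markers with a row, 4 were under 1 FPKM in every library, and PTPRC was at 0 in all 6. The list summed to 4.14 to 4.94 FPKM in the controls and 2.64 to 3.26 FPKM with TAZ. Nearly all of that came from CD68, which fell from 4.53 ± 0.437 to 2.86 ± 0.333 FPKM (limma adjusted p = 0.00185). The 3 megakaryocyte and platelet markers with a row summed to 0.980 to 1.302 FPKM in the controls and 1.498 to 2.47 FPKM with TAZ. PPBP, a chemokine gene of platelets, had 1 fragment in the controls and 46 with TAZ (limma adjusted p = 0.00836 with no filter). The other markers of that list did not share this difference, with 429 and 418 fragments for ITGA2B and 49 and 48 for GP9, both with overlapping groups. The part of the platelet list in the members' changes was not tested.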

How the data were processed

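Messenger RNA levels were measured in 6 goat libraries made from total RNA with the VAHTS Universal V6 kit, per the labels' protocols. The submitters' processing notes name fastp, HISAT2 and HTSeq without versions. For the build, the strand setting and multiply mapping reads, nothing was given in the sources used here, and coordinates were left out. The authors deposited FPKM values in 1 table per group, per the file headers. Of 16285 rows, 23 held a date in place of a symbol and were left out. All 16262 symbols were found in the RefSeq table of assembly ARS1.2, used for names only. Protein and promoter sequences were not analysed here.

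Library totals and gene lengths were recovered from the steps between low FPKM values. Fragment numbers came out whole within 0.02 for 100.0% of rows above 0, and 50.4% of the numbers above 9 were odd. Smaller totals, at which odd numbers would no longer be whole, were not used and would lower every fragment number in proportion. Chi-square per degree of freedom between libraries ran from 18.3 to 28.6 for libraries of the same group and from 194 to 239 otherwise (genes with at least 20 fragments in the pair), so no pair lay within sampling noise. Intervals and floors that rest on fragment numbers cover counting error only.

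Samples were grouped by title. The test was limma 3.58.1 in R 4.3.3 on log2(FPKM + 1) with a mean-variance trend and a filter of 1 FPKM in at least 3 libraries, two-sided, and it was tested on simulated data. The other settings tried were a pseudocount of 0.1 or 0.5, the test without a filter, a mean of 5 FPKM, median-ratio scaling, no trend, the replicate number as a block, each library left out, and voom on the recovered fragments. Combinations with no filter for TFPI and other low genes were added after seeing the data. Members and gene lists were chosen with earlier results of these data known. The genes named were the members, the 3 tested genes of each pathway list with the lowest adjusted p, a set of pathway genes named whatever their p (SERPINB2, PLG, PLGRKT, ANXA2, S100A10, LRP1, F2, F7, F10, F2R and PROCR) and WWTR1. One further gene of the lists is not reported here and is in none of their counts. List genes not named in the text are in the counts. ENO1, MRC2, F8, ERG, PECAM1, VWF, TEK, MSLN, CD68, PPBP, ITGA2B and GP9 were named after their values were seen. With 3 libraries a group, no search for outliers was made.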

Additional observations from a re-analysis of the deposited data

How the results depend on the processing

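Of 124 refits of single members, 121 kept direction and side of the threshold, and the 3 others were the lost calls of PLAUR given above. Of 245 refits of the other genes, 223 kept both, 12 lost the call, 1 gained it (F2R) and 9 changed sign, all 9 in genes near 0: F2RL2 was -0.00054 with voom and -0.051 to 0.066 when each library was left out, GGCX -0.076 to 0.061 and PLGRKT -0.020 to 0.085. Leaving out each library gave 5 to 6 members that rose and 1 that fell, 3 to 4 pathway genes that rose and 2 to 4 that fell, and 1247 to 1874 genes higher and 1733 to 2392 lower over the table. Median-ratio scaling gave 2030 genes higher and 1784 lower against 1693 and 2381, a share higher of 53.2% in place of 41.6%, and it moved the median of all genes from -0.050 to -0.00074. No member changed its call under it. The members that reached 2-fold depended on the setting. THBD had a log2 fold change of 1.05 with a pseudocount of 0.1, 1.01 with 0.5, 1.03 with median-ratio scaling and 1.06 with voom. PLAU had 1.004 with median-ratio scaling, 1.01 without TAZ replicate 1 and 1.06 without TAZ replicate 3. Same-numbered libraries did not deviate together (correlations of -0.44, -0.11 and -0.40), so the numbers do not pair the samples. Libraries of unlike number did, for control 1 with TAZ 2 (0.53), control 2 with TAZ 3 (0.55) and control 3 with TAZ 1 (0.69). Because deviations cancel out within each group, correlations of both signs are forced, and these values do not establish pairs. The labels name no such pairs or batches, and a block of these pairs was not tested. With the replicate block 6 members rose and 1 fell, 4 pathway genes rose and 5 fell, and 1548 genes were higher and 1964 lower. That fit is among the refits counted above, and since the numbers do not pair the samples it adds no support. Its limma adjusted p for SERPINE2 was 1.23e-57, against 2.69e-09 in the main fit, and was not relied on. Depth limits the genes with few fragments, such as TFPI, F2 and F2R.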

Other observations

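Serpin genes were counted as a group chosen after the values were seen. Of the 13 serpin rows analysed here, 5 passed the filter, of which 2 rose (SERPINE2 and SERPING1), 1 fell (SERPINF1) and 2 did not pass, where 37.9% of all tested genes passed, 15.7% higher and 22.1% lower. The 2 that did not pass were abundant intracellular members. SERPINH1, the collagen chaperone HSP47, stood at 725 ± 61.4 against 737 ± 19.6 FPKM (limma adjusted p = 0.835), and SERPINB1, an inhibitor of neutrophil proteases, at 63.6 ± 7.15 against 63.2 ± 3.09 FPKM (adjusted p = 0.968). The 8 serpin rows below the filter reached at most 0.456 FPKM, which was SERPINI1, the neuroserpin gene, in TAZ replicate 2. SERPINI1, which inhibits tissue-type plasminogen activator, stood at 0.294 ± 0.0770 against 0.437 ± 0.0181 FPKM (90 against 141 fragments, limma adjusted p = 0.0590 with no filter).

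Of the 19 pathway genes below the filter, 2 passed the test with no filter, F8 of the clotting list and GAS6 of the anticoagulant list, both lower with TAZ. Over all genes 23.8% passed that test, 13.5% lower. F8 stood at 0.191 ± 0.0323 against 0.115 ± 0.0141 FPKM (limma adjusted p = 0.0327, and 0.0561 with voom), and GAS6, a vitamin K-dependent ligand of the TAM receptors, at 1.09 ± 0.207 against 0.598 ± 0.105 FPKM (adjusted p = 0.0294).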
